A study of Homo sapiens with 6 samples.

Results

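The HOX cluster genes and their antisense RNAs were taken from 3 lists of N6-methyladenosine (m6A) peaks by gene name: HOXA, HOXB, HOXC or HOXD followed by digits, with or without an AS ending, or a cluster name followed by an antisense number. This rule found 28 of the 10785 gene names in the lists, 23 HOX genes and 5 antisense RNAs, and HOTAIR was left out. They held 32 of 13147 peaks with DF2 siRNA 1 (0.243%), 36 of 13310 peaks with DF2 siRNA 2 (0.270%) and 40 of 15272 peaks with control siRNA (0.262%). The cells were U2OS, a human bone osteosarcoma line of WT genotype, and DF2 is YTHDF2, a reader protein that binds m6A. Cells had received DF2 siRNA #1, DF2 siRNA #2 or a control siRNA, and each condition had 1 m6A-IP sample and 1 input sample of cytoplasmic RNA in fragments of about 100 nt. Each condition had 1 deposited peak list. Its name marks it as a merge of r1 and r2, but the labels show only 1 m6A-IP and input pair for it. Without replicates, values are given with no SD, and differences between conditions were not tested.

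HOX genes encode homeodomain transcription factors that set position along the body axis. They lie in 4 clusters, and within a cluster the genes are numbered by paralog group, with low numbers acting towards the head and high numbers towards the tail and the ends of the limbs. Several clusters also give RNAs from the opposite strand, called antisense RNAs. In messenger RNA, m6A is known to lie mostly around stop codons and in long exons, within short motifs built on GGAC. YTHDF2 promotes the decay of RNA that it binds.

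The labels call U2OS epithelial. Of 11 epithelial markers, CLDN4 and KRT8 had a peak in both DF2 siRNA lists, and 0 had a peak in the control list. The remaining 9, CDH1 and EPCAM among them, had none in any list. The strongest CLDN4 peak by score stood at percentile 5.76 of its list with siRNA 1 and 21.7 with siRNA 2. That of KRT8 stood at 20.8 and 30.1. Over all genes with a peak in any list, 3.55% had one with both siRNAs and none with control siRNA. Of 11 bone or mesenchymal markers, 5 had a peak with siRNA 1, 4 with siRNA 2 and 3 with control siRNA. Among them, 1 likewise had a peak with both siRNAs and none with control siRNA. COL1A1 and RUNX2 were among those with one in every list, and 6 of the 11 had none in any list. The part of this difference in the HOX results was not tested. A peak needs both RNA and methylation, so a gene without a peak is not shown to be silent or unmethylated. In bulk samples, fewer cells of a kind and less RNA per cell cannot be told apart.

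Each peak carries 3 values made by the authors: a score (a whole number with no stated definition), a fold enrichment and a −log10 FDR. The median score of all peaks was 33.0 with siRNA 1, 99 with siRNA 2 and 158 with control siRNA, so scores were compared only within a list, as a percentile among all peaks of that list. Percentiles from different lists are descriptive and do not measure a change between conditions. Depth is unknown, and the intervals given are 95% exact binomial intervals that cover counting error only.

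Part of the sequence under HOX peaks could be read from RefSeq windows of assembly GRCh38.p14, which run from 250 bases before to 50 bases after the start of a gene. The motif GGACA was searched for on the strand of the peak, together with the motif GGACC and, as the third, GGACT. Where a peak covered part of its own gene's window in a single run (HOXD10, HOXD11 and HOXA6), HOXD10 alone held a match. That match lay under the HOXD10 peak of all 3 lists. The stretches read were of unlike length, 249 bases for HOXD10, 44 for HOXD11 and 50 for HOXA6. In the window of HOXB-AS3, 253 bases under the HOXB6 peak with siRNA 2 and with control siRNA held no match. The HOXD10 site is shown because it is the only match found. It lies at chr2:176116789-176116813 on the plus strand, with the motif in capitals, and the motif begins 21 bases after the RefSeq start of HOXD10.
HOXD10: agcctacaaaGGACAcaatctctct
The peak covered 249 bases of that window. Among all 35116 windows, cut to the same 249 bases, 52.4% held at least 1 of the 3 motifs on the gene's own strand and 21.4% held GGACA. The start of HOXA11-AS is shown for another reason, as the peaks of the 3 lists differ there. Its first 50 bases, chr7:27185408-27185457 on the plus strand, belong to a non-coding RNA and held none of the 3 motifs.
HOXA11-AS: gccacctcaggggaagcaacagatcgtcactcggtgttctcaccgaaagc
All 50 of these bases lay under the HOXA11-AS peak with siRNA 1 and with control siRNA, and 0 of them with siRNA 2. A match is a description of the letters, and not a methylated site.

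RefSeq lists 39 HOX genes and 13 antisense RNAs named after the clusters. A peak was present for 23 of the 39 genes (59.0%) and for 5 of the 13 antisense RNAs (38.5%). By cluster, the genes with a peak were 7 of 11 in HOXA (chromosome 7), 5 of 10 in HOXB (chromosome 17), 8 of 9 in HOXC (chromosome 12) and 3 of 9 in HOXD (chromosome 2). In HOXC the gene without a peak was HOXC12. In HOXD the peaks were all in HOXD9, HOXD10 and HOXD11, which neighbour each other. Genes without a peak in HOXA included HOXA7 and HOXA9, and those in HOXB were HOXB1, HOXB2, HOXB4, HOXB8 and HOXB9. Antisense RNAs with a peak were HOXA10-AS and HOXA11-AS, 2 of 4 in HOXA, and HOXC-AS2, HOXC-AS3 and HOXC13-AS, 3 of 4 in HOXC. HOXB had 0 of 4 and HOXD 0 of 1.

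**Figure D1:**
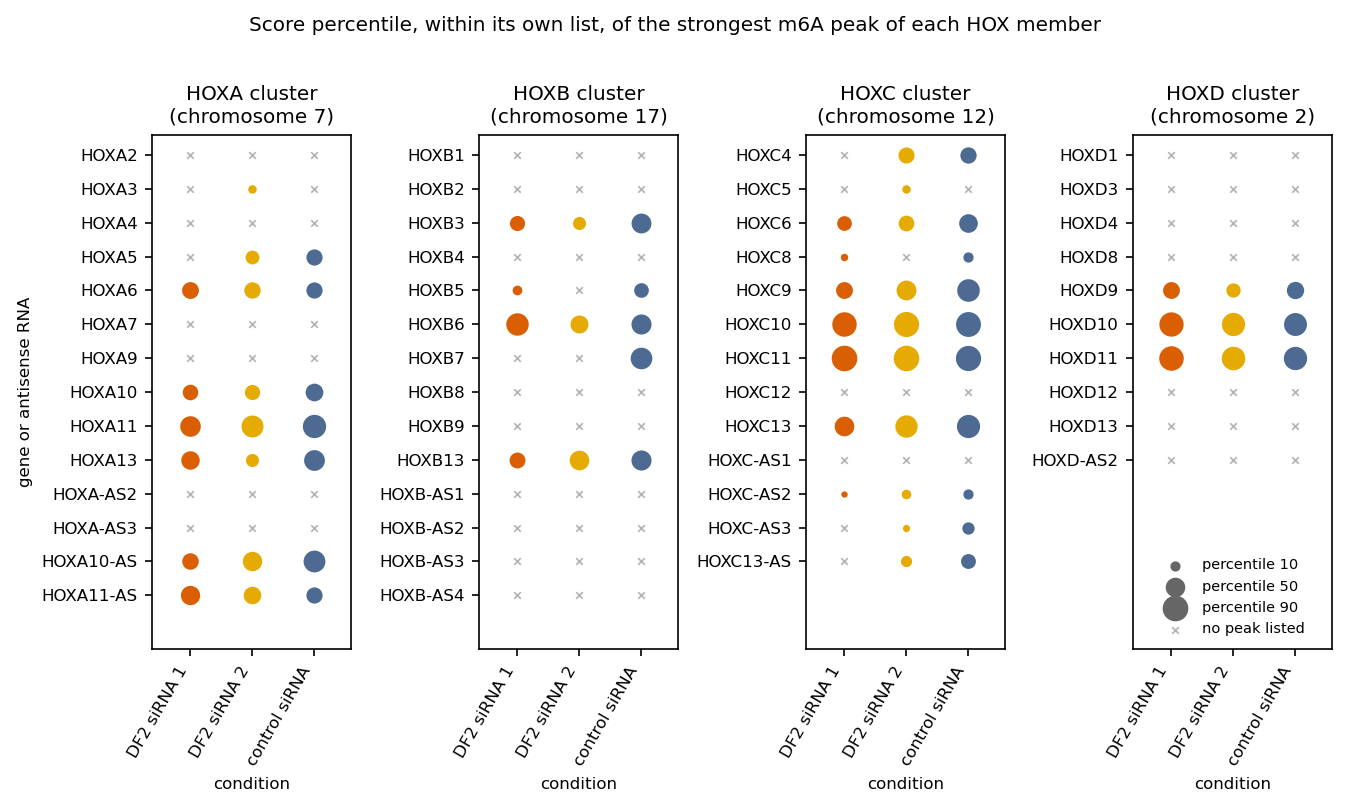
Strongest m6A peak of the RefSeq HOX genes and antisense RNAs reported here, by cluster (panels) and condition (columns). The size of a point is the percentile of the peak's score within its own list, and a cross marks a member with no peak listed. HOXC10 and HOXC11 have large points in all 3 lists, while the HOXB and HOXD antisense RNAs hold crosses only.

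Peaks were unevenly spread over the paralog groups. Among groups 1 to 4, 4 of 12 genes had a peak in any list, and 1 (HOXB3) had one in all 3 lists. The strongest HOXB3 peak had 136 of 600 bases within the RefSeq span of HOXB3 with siRNA 1 and with control siRNA. With siRNA 2 it had 0 of 200, and in each list it shared bases with a HOXB6 peak. A stop codon peak within the HOXB3 span was present with siRNA 2 and control siRNA, and not with siRNA 1. Among groups 5 to 8, 8 of 11 genes had a peak and 3 (HOXA6, HOXB6 and HOXC6) had one in every list. Among groups 9 to 13, 11 of 16 genes had a peak, and all 11 of them had it in every list. Groups 5, 6, 10 and 11 were complete, since each of their 3 genes had a peak, and groups 2 and 12 had none. The strongest peak of genes in groups 9 to 13 had a median score percentile of 50.5 with siRNA 1, 64.4 with siRNA 2 and 70.8 with control siRNA. For groups 5 to 8 the medians were 26.2, 30.6 and 32.8 in the same order of lists. For groups 1 to 4 they were 28.0 (HOXB3 alone), 13.8 and 33.3, with HOXB3 itself at 28.0, 19.5 and 51.8. The order of these bands was not tested, as genes of a cluster share transcripts and bases.

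**Figure D2:**
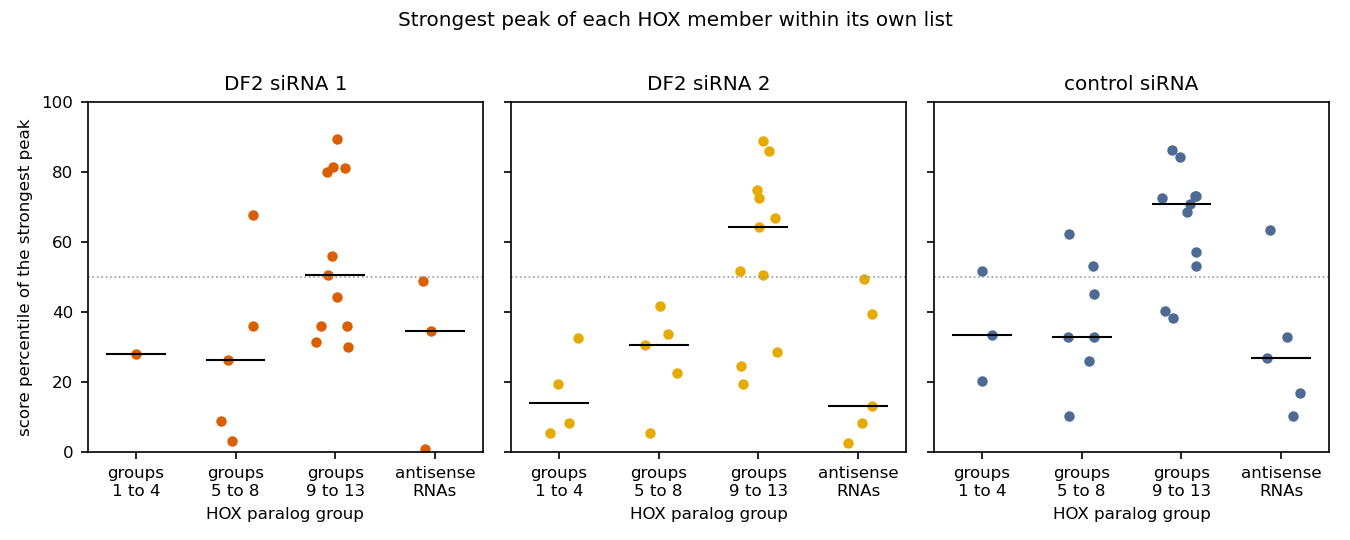
Score percentile (vertical axis, within each list) of the strongest peak of each HOX member, by paralog group or as antisense RNA, in the 3 conditions. Each point is a gene, black lines are medians, and the dotted line is the middle of the list. The median of groups 9 to 13 lies at 50.5, 64.4 and 70.8, above that of the other groups in each panel.

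HOXC11, a gene of the tail end of its cluster, had the strongest HOX peak by score in every list. The stop codon peak of HOXC11 had a score of 203 (percentile 89.4) with siRNA 1, 673 (88.9) with siRNA 2 and 1034 (86.3) with control siRNA. Its fold enrichment was 102, 112 and 83.9 in the same order, at fold percentiles of 96.7, 98.4 and 98.5. The stop codon peak of HOXC10, the neighbour of HOXC11, had score percentiles of 81.2 with siRNA 1, 86.1 with siRNA 2 and 84.3 with control siRNA. It ranked next by score with siRNA 2 and with control siRNA, while with siRNA 1 it lay below a HOXD11 peak. Its fold enrichment of 38.9 with siRNA 1, 43.1 with siRNA 2 and 36.0 with control siRNA was lower than that of HOXD11 in each list, where HOXD11 had 59.3, 55.8 and 42.4. HOXC10 had a further peak over its 5′ UTR and coding sequence, and both peaks had the same start, end and covered bases in all 3 lists.

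HOXD10 and HOXD11 act in limb and lower spine development in mouse. The strongest peak of HOXD11 had score percentiles of 81.6 with siRNA 1, 75.0 with siRNA 2 and 73.2 with control siRNA, and that of HOXD10 had 80.1, 72.6 and 70.8. These peaks are not independent, as they shared the same 452 bases on the same strand in each list. The deposited HOXD10 peak began within the RefSeq span of HOXD11 and joined blocks of both genes. HOXD10 had 2 peaks with siRNA 1, covering 1400 and 400 bases, and a single peak with siRNA 2 and with control siRNA, covering 2200 and 2600 bases. HOXD9 had its strongest peak at percentile 35.9 with siRNA 1, 24.5 with siRNA 2 and 38.3 with control siRNA, lower than both neighbours in every list.

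The remaining genes of groups 9 to 13 had peaks around the stop codon in every list, apart from HOXC13. HOXA11, which patterns the forearm and kidney in mouse, had a single peak, with fold enrichments of 20.7 with siRNA 1, 31.3 with siRNA 2 and 36.0 with control siRNA and score percentiles of 56.0, 64.4 and 73.2. HOXA13, the gene mutated in hand-foot-genital syndrome, had a stop codon peak with a fold enrichment of 20.7 with siRNA 1, 14.1 with siRNA 2 and 67.9 with control siRNA. The fold percentiles of that peak were 62.6, 37.0 and 95.3, and it covered 600, 600 and 800 bases. HOXA13 also had a 3′ UTR peak with siRNA 2 and control siRNA, and none there with siRNA 1.

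HOXB13, a regulator of prostate development, lies apart from the rest of its cluster. Its stop codon peak had a fold enrichment of 13.7 with siRNA 1, 40.0 with siRNA 2 and 69.4 with control siRNA, at fold percentiles of 46.7, 79.2 and 95.7. A 3′ UTR peak of HOXB13 was present in every list. The fold percentile was highest in the control list for HOXA13 and HOXB13, and the siRNA lists had opposite orders for these genes.

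HOXC13, which controls hair keratin genes, had its strongest peak at the stop codon with siRNA 1 (percentile 50.5) and siRNA 2 (66.9). In the control list its peak lay within the 3′ UTR and stood at percentile 72.5. HOXC9 had its strongest peak at percentiles of 35.9 with siRNA 1, 51.6 with siRNA 2 and 68.5 with control siRNA. HOXA10, needed for the development of the uterus in mouse, had 29.9, 28.4 and 40.3 in that order.

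Genes of groups 5 to 8 had weaker peaks. HOXB6 was the highest of them with siRNA 1, at percentile 67.6, and stood at 41.7 with siRNA 2 and 53.0 with control siRNA. HOXB6 had peaks both at the stop codon and over its 5′ UTR in every list. Its 5′ UTR blocks shared bases with the 5′ UTR peak of HOXB3 on the same strand, 433 bases with siRNA 1, 80 with siRNA 2 and 433 with control siRNA. HOXC6 had percentiles of 26.2, 30.6 and 45.2 in that order.

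HOXA6 had 35.9 with siRNA 1, 33.6 with siRNA 2 and 32.8 with control siRNA. With both DF2 siRNAs the highest HOXA6 peak was a 200-base peak upstream of the RefSeq span of the gene, for which the authors gave no transcript part. In the control list the same 200 bases formed the upstream end of a longer peak that reached the 5′ UTR and coding sequence. The stop codon peak of HOXA6 was identical in position in all 3 lists.

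Of the 28 members, taken by the authors' gene names, 18 had a peak in all 3 lists, 15 HOX genes and 3 antisense RNAs. HOXA5, HOXC4, HOXC-AS3 and HOXC13-AS were among 5 members with a peak with siRNA 2 and control siRNA and not with siRNA 1. HOXB5 and HOXC8 had a peak with siRNA 1 and control siRNA and not with siRNA 2. HOXB7 had a peak in the control list alone, and HOXA3 and HOXC5 with siRNA 2 alone. The lists of both siRNAs were set against the same control list, so these comparisons share it.

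A gene was called lost with a siRNA if it had a peak in the control list and none with that siRNA, and gained in the opposite case. With siRNA 1, 6 of 26 members were lost (23.1%), against 20.1% of all genes with a peak in either list. None of the 26 was gained with siRNA 1, against 8.83% of all genes. With siRNA 2, 3 of 28 were lost (10.7%), against 16.4%, and 2 of 28 were gained (7.14%), against 6.74%. With both siRNAs, 1 of 28 was lost (3.57%), against 12.0% of all genes, and 0 were gained, against 3.55%. Between the siRNAs, 2 of 27 members had a peak with siRNA 1 and not siRNA 2 (7.41%), against 9.82% of all genes. In the other direction, 7 of 27 had a peak with siRNA 2 and not siRNA 1 (25.9%), against 11.8%. The counts of lost and gained members lay within a few genes of what the background shares give, and with so few members no departure was tested.

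HOXB7, a gene of paralog group 7, was the member lost with both siRNAs. Its control peak lay over the stop codon at chr17:48607355-48607954 (hg38, minus strand), with a score of 299 (percentile 62.4), a fold enrichment of 23.1 and a −log10 FDR of 4.89. No peak of any gene overlapped it in either siRNA list. Other members that differed between lists had weak peaks. HOXA3, which acts in thymus and thyroid development in mouse, had its stop codon peak at percentile 5.44 with siRNA 2. HOXC5 also stood at 5.44 with siRNA 2, and its peak shared bases with peaks of RP11-834C11.14 and RP11-834C11.12 on the same strand.

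HOXA5, known for its part in lung development in mouse, had 22.4 with siRNA 2 and 32.8 with control siRNA, over the same 307 bases of its 3′ UTR. HOXC4 had 32.4 and 33.3 in these lists. HOXB5 had 8.67 with siRNA 1 and 26.0 with control siRNA, and HOXC8 had 3.05 and 10.1. Apart from HOXB7, each member missing from at least 1 list thus lay below percentile 35 wherever it had a peak.

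Antisense RNAs fell into a HOXA pair with middling peaks and a HOXC trio with weak ones. HOXA10-AS had a fold enrichment of 12.6 with siRNA 1, 30.8 with siRNA 2 and 44.2 with control siRNA, at score percentiles of 34.5, 49.3 and 63.5. Its peaks ended at the same base in each list, and those of siRNA 2 and control siRNA had further blocks upstream. HOXA11-AS covered the longest stretch of any member, 2917 bases in a single control peak. With siRNA 1 the same place held peaks of 1800 and 917 bases, and with siRNA 2 it held peaks of 600, 1000 and 917 bases. Its strongest peak stood at score percentile 48.8 with siRNA 1, 39.5 with siRNA 2 and 32.8 with control siRNA, the reverse order of HOXA10-AS. By fold enrichment the order was not reversed, as the strongest peaks had 25.2 with siRNA 1, 34.6 with siRNA 2 and 16.2 with control siRNA. These values come from peaks of unlike length and place. The strongest siRNA 1 peak ended at base 27186899, and that of siRNA 2 began at base 27187100. A siRNA 1 peak with the same start and end as the latter stood at percentile 22.8, with a fold enrichment of 9.06. The control peak covered both places. The order thus does not compare the same bases. Fragments named HOXA11-AS1 with a number, outside the rule, overlapped these peaks, 4 with siRNA 1, 3 with siRNA 2 and 3 with control siRNA.

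In HOXC, HOXC-AS2 had its strongest peak at percentile 0.799 with siRNA 1, 8.15 with siRNA 2 and 10.1 with control siRNA. HOXC-AS3 had 2.54 with siRNA 2 and 16.8 with control siRNA, and HOXC13-AS had 13 and 26.9. HOXC-AS1 and the HOXB antisense RNAs had no peak. Some of these peaks lay over peaks of the gene on the other strand. HOXA10-AS and HOXA10 shared 218 bases with siRNA 1, 18 with siRNA 2 and 18 with control siRNA. HOXC-AS2 and HOXC9 shared 122 bases with siRNA 1. Whether the libraries kept strand is not stated in the labels. If they did not, reads of a gene and its antisense RNA cannot be told apart.

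**Figure D3:**
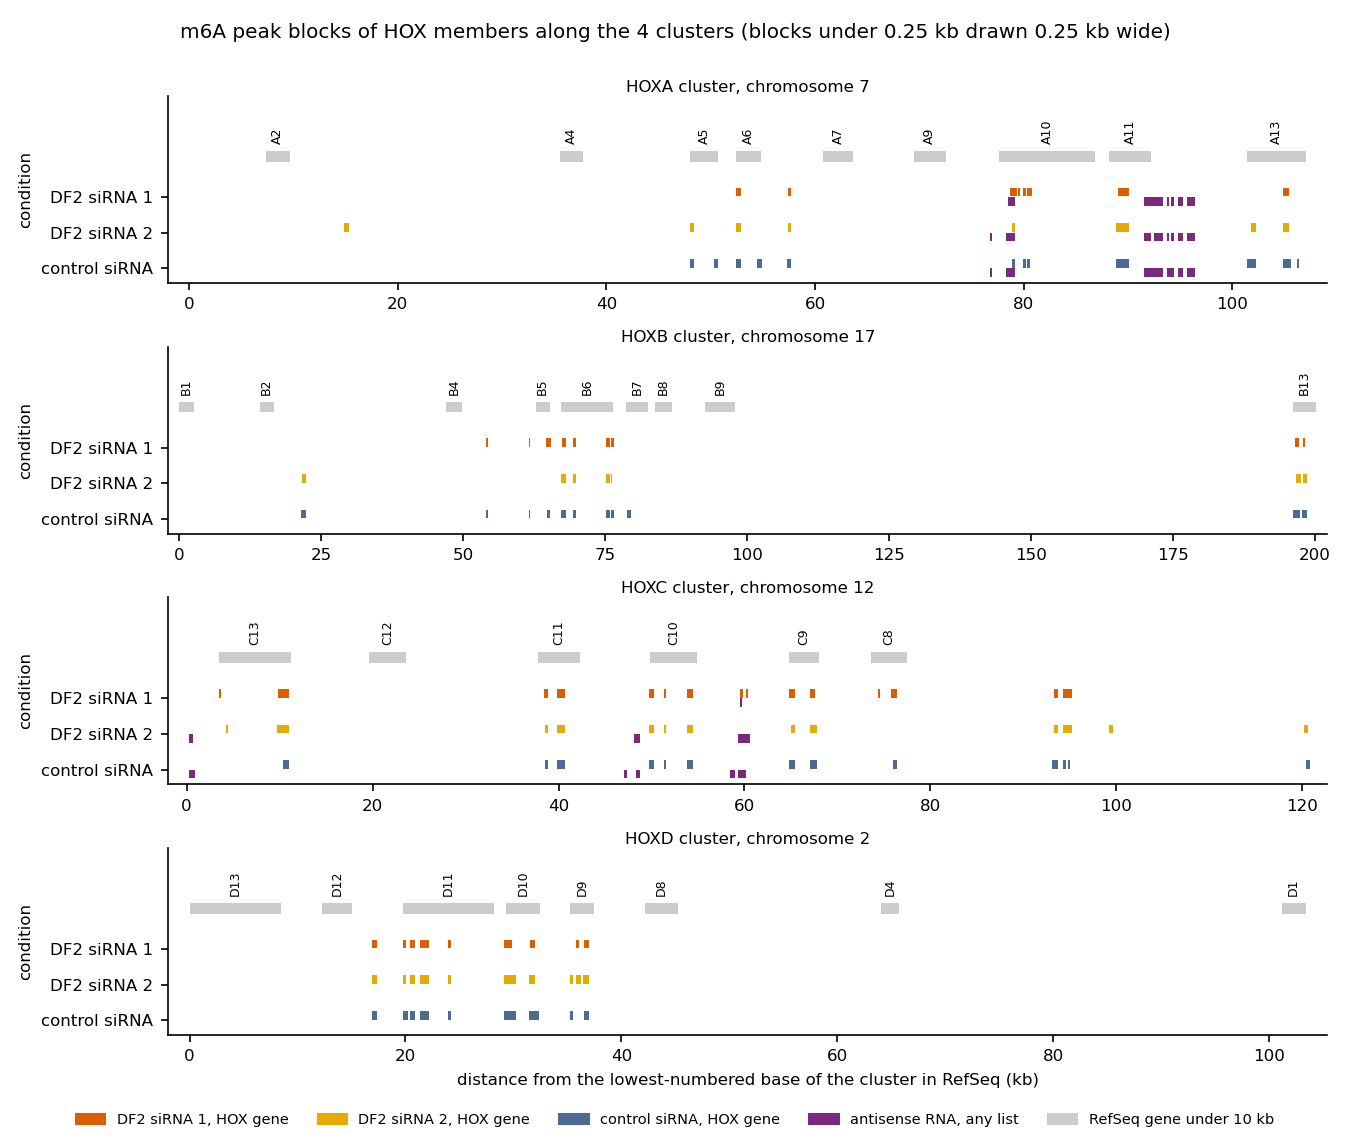
Peak blocks of the HOX members reported here along each cluster, as distance in kb from the lowest-numbered base of the cluster in RefSeq, with 1 row per condition. Coloured bars are blocks of HOX genes, purple bars are blocks of antisense RNAs, and grey boxes are RefSeq genes shorter than 10 kb, labelled without the letters HOX, so that HOXA3, HOXB3, HOXC4, HOXC5, HOXC6 and HOXD3 have no box. Peaks of HOXD lie at HOXD9, HOXD10 and HOXD11 and just before HOXD11, and antisense blocks lie near HOXA10 and HOXA11 and in HOXC.

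The share of HOX peaks found in another list was set beside that of all peaks. Counting an overlap of 1 base or more on the same strand, 27 of 32 HOX peaks of siRNA 1 (84.4%, interval 67.2 to 94.7) were found with siRNA 2, against 83.6% of all siRNA 1 peaks. In the control list, 29 of 32 siRNA 1 peaks (90.6%, 75.0 to 98.0) and 34 of 36 siRNA 2 peaks (94.4%, 81.3 to 99.3) were found, against 81.5% and 86.1% of all peaks. Of the siRNA 2 peaks, 26 of 36 (72.2%, 54.8 to 85.8) were found with siRNA 1, against 80.5%. Of the control peaks, 27 of 40 (67.5%, 50.9 to 81.4) were found with siRNA 1 and 32 of 40 (80%, 64.4 to 90.9) with siRNA 2, against 67.1% and 73.4% of all control peaks. The share of all peaks lay within the interval of the HOX share in every one of these 6 comparisons. This did not hold under every other setting. For siRNA 2 peaks found with siRNA 1, the share of all peaks lay just above the interval of the HOX share in 2 of them. With 50% of the bases of each peak in common the HOX share was 58.3% (40.8 to 74.5), against 74.6% of all peaks, and with an FDR under 0.01 it was 62.1% (42.3 to 79.3), against 80.6%. The HOX peaks of siRNA 1 not met in the control list were the 5′ UTR peaks of HOXC9 and HOXC13 and a coding peak of HOXD9.

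By transcript part, stop codon peaks led in every list. They made up 16 of 32 HOX peaks with siRNA 1 (50%), 17 of 36 with siRNA 2 (47.2%) and 19 of 40 with control siRNA (47.5%), against 43.5%, 43.7% and 42.9% of all peaks. Without the antisense RNAs the HOX shares were 57.1% (37.2 to 75.5), 58.6% (38.9 to 76.5) and 57.6% (39.2 to 74.5). These are not like for like with the shares of all peaks, which keep the non-coding RNA class. That class made up 7.61%, 10.6% and 12.6% of all peaks. Peaks in the 5′ UTR class made up 25% of HOX peaks with siRNA 1, 16.7% with siRNA 2 and 17.5% with control siRNA, against 18.9%, 16.6% and 14.4% of all peaks. Peaks in the 3′ UTR class made up 3.12%, 13.9% and 15.0%, against 17.1%, 17.1% and 19.1%. With siRNA 1 this was a single peak, that of HOXB13, and its interval of 0.0791 to 16.2 lay below the share of all peaks. Without the antisense RNAs the 3′ UTR share was 3.57% (0.0904 to 18.3), an interval that held the 17.1% of all peaks, which keep the non-coding RNA class. With UTR classes kept for peaks of a UTR alone, the share of all peaks was 13.8%, also within the interval of 0.0791 to 16.2. For the other classes with a HOX peak, the interval of the HOX share held the share of all peaks in each list. Where the 5′ UTR class was kept for peaks of a UTR alone, it held 9.38% of HOX peaks with siRNA 1, 5.56% with siRNA 2 and 2.50% with control siRNA, against 7.85%, 7.84% and 7.22% of all peaks.

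**Figure D4:**
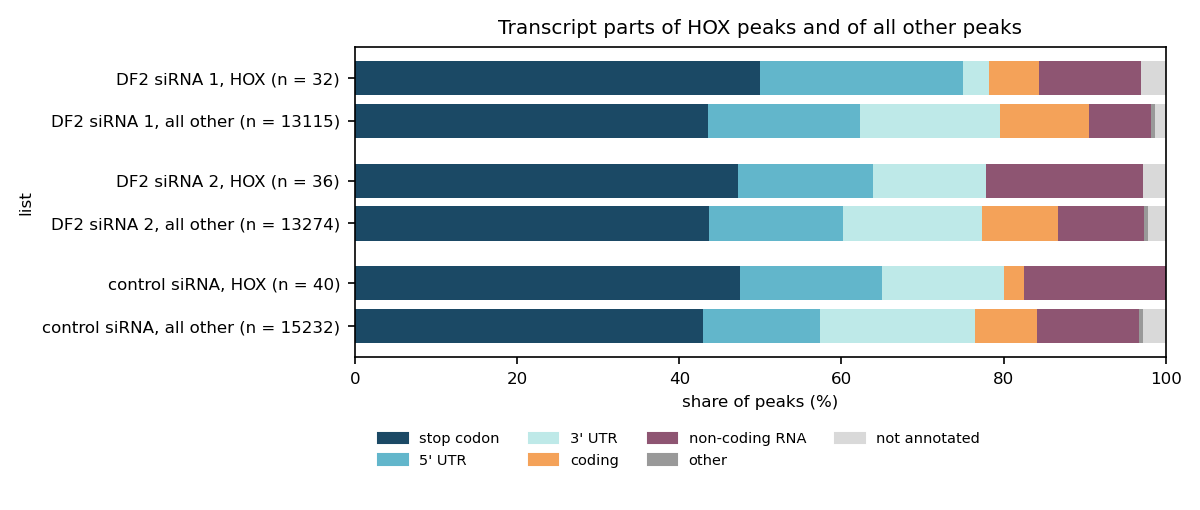
Share of peaks by transcript part (horizontal axis, in percent) for HOX members and for all other genes in each list. Stop codon peaks (dark blue) make up 50%, 47.2% and 47.5% of HOX peaks from top to bottom, and the 3′ UTR band of HOX peaks is narrow with siRNA 1, at 3.12%.

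HOX peaks stood below the middle of their lists by score. Their median percentile was 33.0 with siRNA 1 (interval of the median 20.8 to 48.8), 27.6 with siRNA 2 (18.7 to 39.5) and 33.0 with control siRNA (26.0 to 51.8), where the interval reached past the middle. By fold enrichment the medians were 41.4, 38.0 and 43.0, and by −log10 FDR they were nearer the middle, at 45.5, 42.2 and 49.3. Above the middle of the list by score lay 9 of 32, 9 of 36 and 15 of 40 HOX peaks, and 0 lay in the top 10% of any list. By fold enrichment, 3 with siRNA 1, 1 with siRNA 2 and 3 with control siRNA lay in the top 10%. The strongest peak per member had a median percentile of 35.9 with siRNA 1, 32.4 with siRNA 2 and 48.5 with control siRNA, against 59.5, 59.0 and 60.1 over all genes. Members with more than 1 peak numbered 11 of 20 with siRNA 1 (55.0%), 9 of 25 with siRNA 2 (36.0%) and 14 of 26 with control siRNA (53.8%), against 38.6%, 37.8% and 39.4% of all genes. The median HOX peak covered 600 bases in every list, the same as the median of all peaks.

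Names and RefSeq positions did not always match. Of the 108 HOX peaks, 31 lay at least partly outside the RefSeq span of the gene they are named after, and 8 lay wholly outside it. These 8 were peaks of HOXA6, HOXA11-AS, HOXB3, HOXC9, HOXC-AS2 and HOXC-AS3. Taking peaks by RefSeq span and strand gave 22 members with siRNA 1, 25 with siRNA 2 and 28 with control siRNA, against 20, 25 and 26 by name. By span, HOXA3 and HOXC5 also counted with siRNA 1 and with control siRNA, through peaks named HOXA5, HOXA6 or HOXC6. HOXC4 likewise counted with siRNA 1, through a peak named HOXC6. However, the RefSeq span of HOXA3 contains those of HOXA5 and HOXA6, and the spans of HOXC4 and HOXC5 contain that of HOXC6. These peaks are therefore not shown to belong to HOXA3, HOXC4 or HOXC5, and the higher counts by span rest on them. The HOXC-AS2 peak of siRNA 1 lay outside the span of that RNA. No HOX peak covered any of the 8 RefSeq miRNA hairpins within the clusters.

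Among proteins that work with HOX factors on DNA, the PBX, MEIS and PKNOX cofactors, 6 of 9 had a peak with siRNA 1, 7 with siRNA 2 and 7 with control siRNA. MEIS1, MEIS2, PBX2 and PKNOX1 were among those with peaks in all 3 lists, PBX4 was lost with both siRNAs and MEIS3 was gained with both. Their strongest peaks had a median percentile of 39.5 with siRNA 1, 45.1 with siRNA 2 and 61.3 with control siRNA. Of the trithorax and MLL regulators, which keep HOX genes active, 11, 11 and 10 of 12 had a peak, with medians of 73.7, 82.3 and 84.9. KMT2A and DOT1L had peaks in all 3 lists, and ASH2L was gained with both siRNAs. Of the Polycomb regulators, which keep HOX genes silent, 16, 14 and 13 of 21 had a peak, with medians of 78.5, 84.3 and 81.5. RBBP7 and RING1 were gained with both siRNAs. Of 31 other homeobox genes, 25, 24 and 24 had a peak, with medians of 67.6, 76.7 and 77.8, and MSX1 was gained with both siRNAs. The medians of the trithorax, Polycomb and other homeobox lists thus lay above those of the HOX members in each list, with no test of the difference. Among genes with a peak in any list, 1 of 8 cofactors, 1 of 11 trithorax, 2 of 16 Polycomb and 1 of 25 other homeobox genes were gained with both siRNAs. Over all genes, 3.55% were gained and 12.0% lost with both. With so few genes in each list, no departure was tested. HOTAIR, a non-coding RNA of the HOXC cluster, had a peak at percentile 33.1 with siRNA 1, none with siRNA 2, and one at 51.8 with control siRNA.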

How the data were processed

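Per the submitters' processing notes, reads were aligned with HISAT2, with no version, to the genome build hg38. The peak caller and the merging of r1 and r2 are not stated in the labels or file headers. The authors deposited 1 merged peak list per condition, with a score (definition not given), a fold enrichment (a ratio) and a −log10 FDR for each peak, per the file headers. Every deposited peak had an FDR under 0.05. Gene names and transcript parts are the authors'.

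Peak blocks were read as positions counted from 1, with block sizes reversed on the minus strand. Peaks of 2 lists counted as shared if their blocks overlapped by 1 base or more, strand considered. Transcript parts were assigned in order: any stop codon, then 5′ UTR in the absence of 3′ UTR, then 3′ UTR in the absence of 5′ UTR, then coding sequence alone. Percentiles are mean ranks within a list. Intervals have a level of 95%, those of shares being Clopper-Pearson. No p-value was computed. The RefSeq table and sequences are those of GRCh38.p14, and strand was taken from the peaks of each cluster. All 23 alternative settings listed beforehand were run, and 2 were added later. Overlaps were tested on simulated data, where 2000 of 2000 planted cases came out right in each of 4 settings. Python 3.11.15, numpy 2.4.6, pandas 2.3.3, scipy 1.17.1 and matplotlib 3.10.9 were used.

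The members and gene lists were chosen with earlier results of these data known. All members are given but 1, which, like some genes of the other lists, is not reported here by name and is kept in the counts. Genes outside the rule were named from the lists, as up to 6 members in alphabetical order with a peak in every list, or as lost or gained with both siRNAs. HOTAIR, CDH1, EPCAM, the HOXA11-AS1 fragments and the genes that share bases with HOXC5 were named beside them after their values were seen.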

Additional observations from a re-analysis of the deposited data

How the results depend on the processing

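Of 126 recomputed values, 96 kept close to the reported value and 30 moved beyond its counting interval or by over 1.5 times. Calls of lost and gained members were compared by count, not by share. Requiring peaks to share 50% of their bases, 65.6% of siRNA 1 HOX peaks were found with siRNA 2 and 68.8% in the control list, 69.4% of siRNA 2 peaks were found in the control list, and 62.5% of control peaks with siRNA 2. The same setting, which calls a gene by whether any of its peaks meets a peak of the other list, gave 2 of 26 members gained with siRNA 1 (17.4% of all genes), 6 of 28 lost (22.0%) and 5 of 28 gained (12.3%) with siRNA 2, and 2 of 28 lost (17.4%) and 1 of 28 gained (6.18%) with both siRNAs. HOXC6, with a peak in every list, is both lost and gained under that rule. Calling genes by an overlap of 1 base, chosen after seeing the data, gave the same HOX counts as calling by name, 6 lost and 0 gained with siRNA 1, 3 and 2 with siRNA 2, and 1 and 0 with both. With an FDR under 0.01, 79.3% of siRNA 2 peaks were found in the control list, 2 of 24 members were gained with siRNA 1 (9.69% of all genes) and 3 of 27 were lost with both (11.9%). With the top 50% by score, 100% of siRNA 1 and 100% of siRNA 2 peaks were found in the control list and 60% of control peaks with siRNA 2. In that setting 0 of 13 members were gained (6.17% of all genes) and 5 of 13 lost (17.6%) with siRNA 2, and 4 of 13 were lost with both (13.3%). The count of 6 lost with siRNA 1 did not change, but it was now out of 13 members (46.2%), against 20.4% of all genes. With the top 50% by fold, 76.9% of siRNA 2 peaks were found in the control list. In that setting 1 of 15 members was gained with siRNA 1 (11.6% of all genes) and 5 of 15 (33.3%) were lost with it, against 25.1%. With siRNA 2, 5 of 16 were lost (20.0% of all genes), and 3 of 16 were lost (15.6%) and 1 of 16 gained (5.08%) with both. With lists cut to equal length by score, 2 of 26 members were gained with siRNA 1 (11.0% of all genes) and 1 of 28 with both siRNAs (4.61%). HOXB7 was lost with both siRNAs in each of the 9 settings. As no siRNA peak overlapped its control peak, cuts that remove peaks and stricter overlap rules could not have restored one. Those settings are therefore no support for the call. The 5′ UTR class for UTR alone gave 9.38% with siRNA 1, 5.56% with siRNA 2 and 2.50% with control siRNA, against 7.85%, 7.84% and 7.22% of all peaks. The median span of HOX peaks was 893 bases with siRNA 1, and the median percentile by −log10 FDR was 42.2 with siRNA 2. The cause of these shifts was not tested, beyond the smaller number of peaks under the stricter settings. Counting the HOXA11-AS1 fragments as members, chosen after seeing the data, gave 24 members with siRNA 1, 28 with siRNA 2 and 29 with control siRNA. No paired analysis was possible because each condition has 1 merged list, and for the same reason no replicate could be left out. Depth is unknown, and the number of HOX peaks limits the precision of every share.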
